A study of Mus musculus with 6 samples.

Results

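The 74 histone genes described here were taken from the 17189 genes of the deposited count table by their symbols. The rule kept the genes of the H1, H2A, H2B, H3 and H4 families that carry the current systematic names, and the macroH2A genes. Of these, 62 belong to the clustered, replication-dependent set (5 H1, 16 H2A, 16 H2B, 12 H3 and 13 H4 genes). The other 12 are variants: H1f0, H1f9, H1f10, H2aj, H2ax, H2az1, H2az2, H3f3a, H3f3b, H3f3c, Macroh2a1 and Macroh2a2. Centromeric H3 (Cenpa) has a symbol outside the rule.

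RNA had been sequenced from ureteric bud cells, the epithelium that branches into the collecting ducts of the kidney, sorted by fluorescence from mouse embryos at E16.5. The 3 control libraries came from embryos with the genotype Hoxb7Cre-GFP+ and Ash2l F/+, so they carried the Cre and 1 floxed allele as well. The 3 conditional knockout (cKO) libraries came from embryos with Hoxb7Cre-GFP+ and Ash2l F/F. Hoxb7 drives the Cre in the ureteric bud lineage, so Ash2l remained intact in other lineages of the embryo, and no animal received a treatment. The labels leave unsaid whether a library is 1 embryo or a pool, and p-values therefore measure the spread between these libraries. The series asks what loss of ASH2L, which the enzymes that methylate lysine 4 of histone H3 need as a partner, does to this epithelium.

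Clustered histone genes have no introns and are transcribed in S phase, when new DNA is packed into nucleosomes. Their mRNAs end in a conserved stem-loop that the protein SLBP binds, and not in a poly(A) tail. Most variant genes lie outside the clusters, make polyadenylated mRNAs and are expressed through the cell cycle and in resting cells. The libraries were made with an mRNA kit that captures poly(A) tails, so the clustered genes enter them through the part of their transcripts that such a kit retains. A level of a clustered gene given here is the level in these libraries, and need not follow the amount of its mRNA in the cells.

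The stem-loop is shown because it separates the classes in the annotation. A stem of 6 paired bases that opens with GG, around a loop of TTT and any last base, was searched for in the coding transcripts of GENCODE vM21 (GRCm38). It was present for 42 of 62 clustered genes (67.7%), for 1 of 11 variants with a coding transcript (9.1%) and for 68 of 21901 protein-coding genes (0.31%). Some clustered genes without a match have short annotated transcripts, such as 381 bases for H2bc13, H2bc15 and H2bc18 and 312 for H4c12. Such a transcript may stop before a stem-loop, so a missing match does not show that the gene lacks one. The forms found among the members are written as DNA with the loop in capitals and named by how many genes hold them.
25 genes: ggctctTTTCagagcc
7 genes: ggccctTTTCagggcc
5 genes: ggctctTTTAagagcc
2 genes: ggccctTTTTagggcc
2 genes: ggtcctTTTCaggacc
1 gene: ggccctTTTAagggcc
1 gene: ggctctTTTTagagcc
The variant that holds one is H2ax, with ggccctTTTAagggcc, which no clustered gene of the search held. The poly(A) signal AATAAA lay in the last 100 bases of a coding transcript for 12 of 62 clustered genes (19.4%), 9 of 11 variants (81.8%) and 67.9% of protein-coding genes. H2bc4 and H2bc21, which carried the most clustered-gene reads in the controls, had no stem-loop in their annotated transcripts. AATAAA lay in the last 100 bases for H2bc21 and not for H2bc4. Both were noted after their values were seen.

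Promoters also differed between the classes. RefSeq windows of GRCm38.p6, from 250 bases before to 50 after the start, were found for 57 clustered genes and 11 variants. The counting build named in the submitters' notes is GRCm39, so these windows give sequence only. CCAAT, read on both strands, was present for 84.2% of the clustered genes, 63.6% of the variants and 41.1% of all 27025 promoters. TATAAA was present for 57.9%, 9.1% and 15.7%, and the octamer ATTTGCAT for 19.3%, 9.1% and 2.0%. Of the E2F-like words, TTTGGCGC was in none of the members and 0.6% of all promoters, and TTTCCCGC in 1.8% of clustered genes, no variant and 1.2% of all. A match is a string of letters and was not shown to be bound.

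Windows are shown for the variant with the highest level, for the most abundant H2A.Z gene and for a clustered H2A gene among the 8 with the highest level. Capitals mark CCAAT and TATAAA, and also ATTTGCAT, on either strand.
H3f3b, chr11:116024455-116024754, minus strand: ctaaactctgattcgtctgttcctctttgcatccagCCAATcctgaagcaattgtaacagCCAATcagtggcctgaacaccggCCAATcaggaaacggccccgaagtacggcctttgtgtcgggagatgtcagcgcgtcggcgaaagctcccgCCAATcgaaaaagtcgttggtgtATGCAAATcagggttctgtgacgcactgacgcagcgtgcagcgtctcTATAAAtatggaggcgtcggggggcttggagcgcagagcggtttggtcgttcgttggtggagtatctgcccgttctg
H2az1, chr3:137864237-137864536, plus strand: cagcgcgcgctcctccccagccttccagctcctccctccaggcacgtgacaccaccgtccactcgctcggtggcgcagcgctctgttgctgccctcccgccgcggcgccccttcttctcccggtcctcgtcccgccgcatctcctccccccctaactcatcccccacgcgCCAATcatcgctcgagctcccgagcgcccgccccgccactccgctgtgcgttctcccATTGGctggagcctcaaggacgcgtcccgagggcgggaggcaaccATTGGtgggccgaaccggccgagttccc
H2ac8, chr13:23571171-23571470, minus strand: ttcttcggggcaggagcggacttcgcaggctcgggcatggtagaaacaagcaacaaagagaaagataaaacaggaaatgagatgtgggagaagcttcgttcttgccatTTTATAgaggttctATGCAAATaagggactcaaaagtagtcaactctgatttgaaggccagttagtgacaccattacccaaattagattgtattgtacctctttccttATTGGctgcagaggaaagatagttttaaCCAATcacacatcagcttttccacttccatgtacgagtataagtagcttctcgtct
H3f3b was the 1 variant of the 11 whose window held TATAAA and the octamer, as the H2ac8 window does. In the H3f3b window TATAAA is on the strand shown, and in the H2ac8 window it is on the opposite strand, as TTTATA. The window of H2bc8 on the plus strand, chr13:23571150-23571449, lies on nearly the same bases as that of H2ac8, so both genes are read outward from 1 stretch of DNA.

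Library totals ranged from 9620235 to 10538314 counts, and the limit that a count of 0 allows (3 counts) was 0.285 to 0.307 CPM, where CPM are counts scaled to library size with TMM factors. These limits cover counting error only. Ash2l had 1933, 1853 and 1624 counts in the controls and 451, 292 and 214 in cKO, which is a fitted log2 fold change of -2.43 in edgeR (adjusted p = 0.00786, SE 0.284). Library cKO 3 stood apart: it lists at 0 a total of 1453 of 11738 genes that had over 10 counts in all of the others (12.4%), where no other library lists more than 3 such genes. Its quality weight in limma was 0.0685, against 1.38 to 1.94 for the others. Of Y-linked genes, the controls all held reads of Ddx3y, Kdm5d and Uty, the cKO libraries held none, and Eif2s3y had 504 counts in cKO 3 and none in cKO 1 and 2, so sex and genotype cannot be told apart for those 2 libraries. Fitted changes of the histone genes are therefore given with and without cKO 3.

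Of the 74 genes, 43 passed the filter on low counts, 32 clustered and 11 variant. H1f9, a linker histone of the testis, had 2 counts in all and did not pass. Among the tested variants, 4 fell and 1 rose in cKO by edgeR's quasi-likelihood test at an adjusted p under 0.05. Over all 13047 genes tested, 3.59% fell and 3.52% rose. The median SE was 0.15 for the variants and 0.32 for all genes. A change of the same size was thus easier to call in a variant. Without cKO 3, 7 variants fell and 1 rose, against 14.9% and 13.7% of 13660 genes. The median log2 fold change of the 11 variants was -0.67, or -0.75 without cKO 3, and that of all genes was -0.04 and 0.01.

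The H2A.Z genes encode an H2A variant placed at promoters and enhancers beside nucleosome-free DNA. H2az1 measured 1242, 985 and 1115 CPM in the controls and 619, 537 and 594 CPM in cKO. Every cKO library lay below every control library, and cKO 3 lay between the other cKO libraries. On the log2 scale H2az1 fell by 0.93 (SE 0.112, adjusted p = 0.00844), and by 0.96 without cKO 3 (adjusted p = 7.6e-05). Its call was kept in 5 of 6 tests that left out 1 library and was lost without control 3 (adjusted p = 0.0562).

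H2az2, the second H2A.Z gene, measured 270, 252 and 264 CPM in the controls against 183, 175 and 129 CPM in cKO. The groups were again apart, with cKO 3 the lowest of the 6. It fell by 0.69 (SE 0.146, adjusted p = 0.041), and by 0.56 without cKO 3 (adjusted p = 0.00117). That was the 1 test of the 6 leaving out a library in which the call was kept, with an adjusted p of up to 0.157 in the others. Per length, H2az1 exceeded H2az2 by a ratio of FPKM of 7.18 ± 0.58 in the controls and 6.23 ± 1.36 in cKO (SD, n = 3; exact permutation test, two-sided p = 0.4, 0.4 adjusted over the 3 ratios, where 0.1 is the smallest possible). The ratio in cKO 3, 7.77, was as high as the highest control value. This was 1 of 3 ratios within pairs of variant genes compared in this way.

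Macroh2a1 and Macroh2a2 encode H2A variants with a large macrodomain that are enriched on silent chromatin, including the inactive X chromosome. Macroh2a2 measured 204, 191 and 203 CPM in the controls and 95.5, 85.6 and 111 CPM in cKO. It fell by 1.03 (SE 0.126, adjusted p = 0.00846), and by 1.15 without cKO 3 (adjusted p = 1e-05). Its groups were far apart, and the call was kept in 4 of the 6 tests leaving out a library; it was lost without control 1 and without control 3, where the adjusted p reached 0.0601.

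Macroh2a1 measured 599, 544 and 570 CPM in the controls against 346, 297 and 433 CPM in cKO. All cKO libraries were below the controls, with cKO 3 the nearest to them. It fell by 0.67 (SE 0.146, adjusted p = 0.0439), and by 0.84 without cKO 3 (adjusted p = 8.7e-05). Like H2az2, it was called in 1 of the 6 tests leaving out a library, the one without cKO 3, and its adjusted p reached 0.17 in the others. The balance of the pair differed between the groups: the FPKM ratio of Macroh2a1 to Macroh2a2 was 0.82, 0.794 and 0.784 in the controls and 1.01, 0.966 and 1.09 in cKO. The ratios did not overlap, and the exact permutation test gave p = 0.1, the smallest that 3 against 3 allow (0.15 adjusted over the 3 ratios).

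H3f3b and H3f3a both encode H3.3, the replacement H3 deposited outside replication, and their proteins are the same. H3f3b measured 5269, 4107 and 4114 CPM in the controls and 7946, 6681 and 6163 CPM in cKO. Its lowest cKO library was above its highest control library. H3f3b rose by a log2 fold change of 0.62 (SE 0.141, adjusted p = 0.049), close to the threshold, and by 0.69 without cKO 3 (adjusted p = 0.00142). The other 5 tests leaving out a library did not call it, with an adjusted p of up to 0.202. It had the highest level per length of all 74 genes, 1629 ± 241 FPKM in the controls and 2578 ± 297 FPKM in cKO (SD, n = 3).

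H3f3a, at 914, 1020 and 971 CPM in the controls and 818, 924 and 945 CPM in cKO, overlapped between the groups. Its log2 fold change was -0.11 (SE 0.0916, adjusted p = 0.54), or -0.16 without cKO 3 (adjusted p = 0.274). The FPKM ratio of H3f3b to H3f3a was 2.3, 1.61 and 1.69 in the controls and 3.88, 2.89 and 2.61 in cKO. The ratios were apart in the 6 libraries, and the exact permutation test gave p = 0.1, the smallest possible (0.15 adjusted over the 3 ratios). H3f3c is a copy that shares 73.8% of its 50-base words with other genes, and it measured 2.3 ± 0.472 CPM in the controls and 2.15 ± 1.59 CPM in cKO (SD, n = 3). With such shared sequence its reads are uncertain, and its log2 fold change of -0.10 (adjusted p = 0.97) changed sign without control 1 or cKO 1 and was -0.75 without cKO 3 (adjusted p = 0.539).

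**Figure D1:**
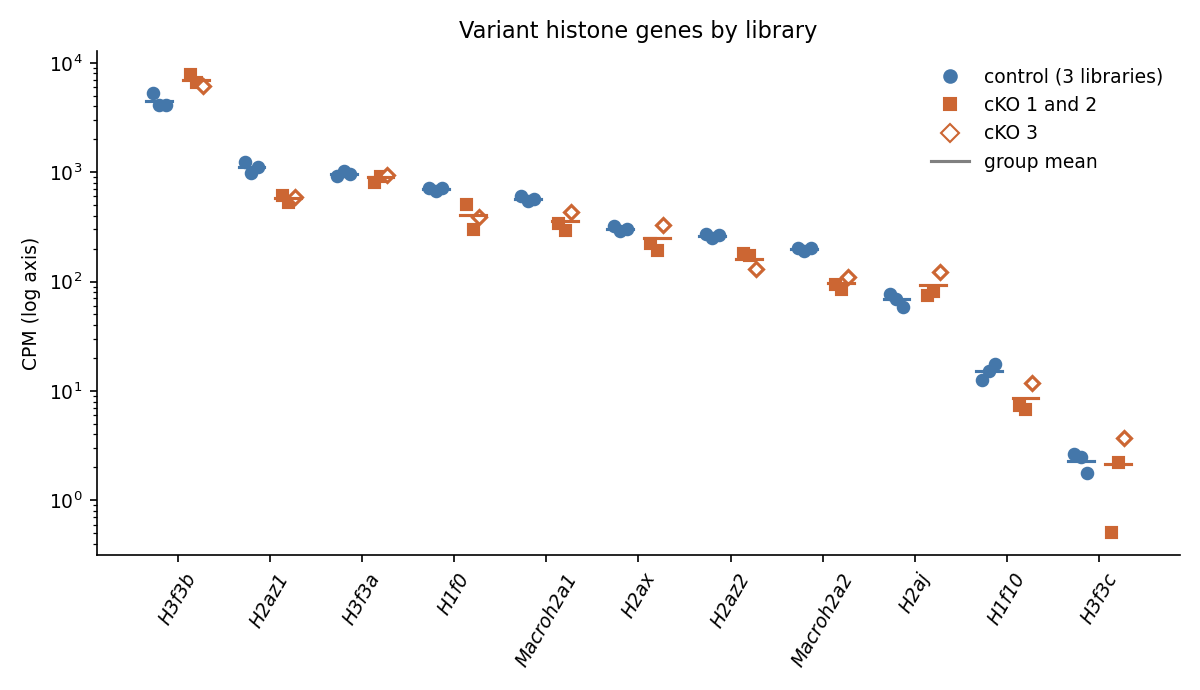
Level of each tested variant gene in each library, in CPM on a log axis, with bars at the group means; open diamonds mark cKO 3. H2az1, H2az2, Macroh2a1 and Macroh2a2 lie lower and H3f3b higher in all 3 cKO libraries, and cKO 3 shows no variant of this plot at 0.

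H1f0 encodes H1.0, the linker histone that accumulates in cells leaving the cycle. It measured 713, 671 and 717 CPM in the controls and 515, 303 and 390 CPM in cKO. The groups were apart, yet its log2 fold change of -0.80 (SE 0.187) had an adjusted p of 0.0526 in edgeR. It was called lower without cKO 3 (log2 fold change -0.79, adjusted p = 0.0119), without cKO 1 and by DESeq2. H1f10, which encodes the linker histone H1X, measured 12.7, 15.1 and 17.6 CPM in the controls and 7.46, 6.8 and 11.8 CPM in cKO. It was not called (log2 fold change -0.80, adjusted p = 0.319), and it fell by 1.09 without cKO 3 (adjusted p = 0.0156).

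H2ax encodes the H2A variant that is phosphorylated around DNA breaks. It measured 323, 291 and 299 CPM in the controls and 223, 196 and 327 CPM in cKO. The first pair of cKO libraries was below the controls and cKO 3 was above them. H2ax was not called (log2 fold change -0.29, SE 0.193, adjusted p = 0.432), and it fell by 0.55 without cKO 3 (adjusted p = 0.00186). H2aj, which encodes H2A.J, measured 77.6, 69.9 and 58.4 CPM in the controls and 75, 82.7 and 123 CPM in cKO. Its values overlapped, with cKO 3 highest, and its log2 fold change was 0.45 (adjusted p = 0.299), or 0.19 without cKO 3 (adjusted p = 0.38).

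Summed over the 11 variants other than H3f3b, the level was 4359, 4042 and 4216 CPM in the controls and 2882, 2609 and 3067 CPM in cKO, 0.678 of the control mean. H3f3b made up 49.4 to 54.7% of all variant counts in the controls and 66.8 to 73.4% in cKO. The sum over all 12 variants was 8702 ± 806 CPM in the controls and 9782 ± 906 CPM in cKO (SD, n = 3), with overlapping libraries. By family, variant H2A genes summed to 2519 ± 192 CPM in the controls and 1544 ± 172 CPM in cKO. The variant H1 genes summed to 716 ± 25.5 and 411 ± 107 CPM, and the H3.3 genes to 5467 ± 622 and 7827 ± 848 CPM.

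None of the 32 tested clustered genes was called by edgeR with 6 libraries, beside 3.59% of all genes lower and 3.52% higher. At an unadjusted p under 0.05 there were 2, H2bc4 and H1f2, or 6.25%, where 23.1% of all genes tested passed. DESeq2 called both higher and none lower, where it called 7.69% of genes lower and 8.05% higher among the 13804 with an adjusted p. limma-voom with library weights called 2 lower and 3 higher, beside 13.5% and 12.3% of genes. Without cKO 3, edgeR called 4 of 36 lower (H2ac23, H2ac8, H4c4 and H1f5) and 3 higher (H2bc4, H1f2 and H2ac18), beside 14.9% and 13.7% of all genes. In none of these fits was the share of clustered genes called above that of all genes. It was above in both directions in a limma fit of log2(FPKM + 1). That fit called 3 of 32 clustered genes lower and 2 higher, beside 709 and 696 of 13047 genes. With 6 libraries in edgeR the median SE was 1.10 for the clustered genes and 0.32 for all genes. A change of the same size was thus harder to call in a clustered gene.

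The clustered genes had few reads. Together they held 0.0159 to 0.021% of the counts of a library, where the variants held 0.811 to 1.07%. The median SE of a log2 fold change was 1.10 over the 32 clustered genes and 0.15 over the 11 variants. Their median log2 fold change was -0.53, and -0.75 without cKO 3, with 18 negative and 14 positive values among the 32, and 27 and 9 among the 36 without cKO 3. Without cKO 3 the median SE of the clustered genes was 0.83, over 36 genes, and with limma's library weights it was 0.70 over the 32.

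**Figure D2:**
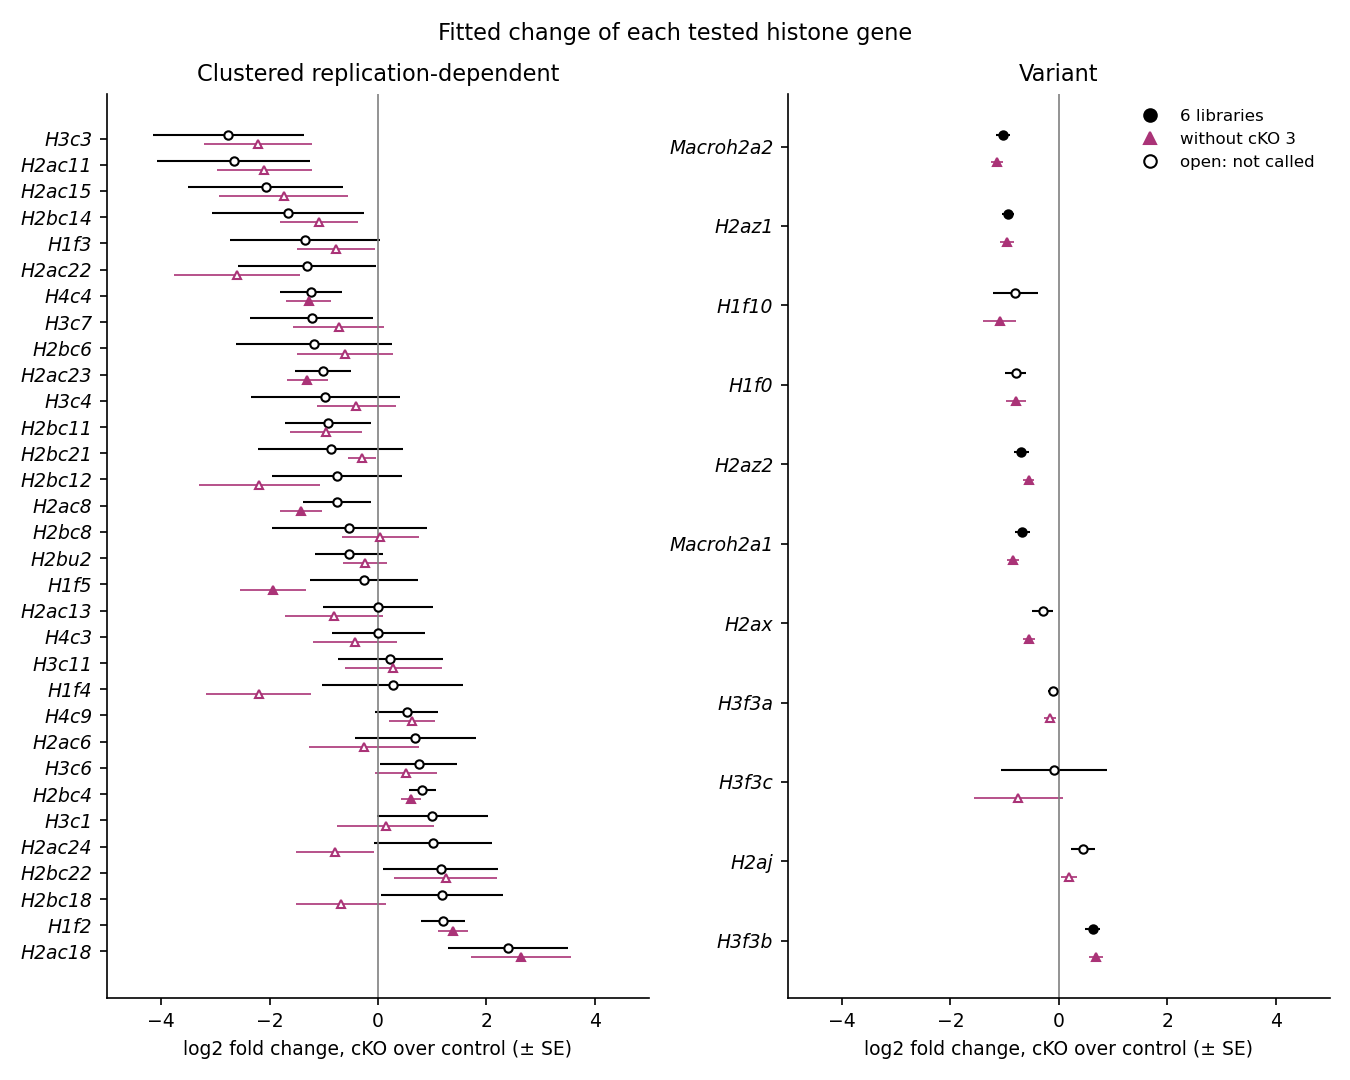
Log2 fold change of each tested histone gene in cKO over control with its SE, for all 6 libraries (black circles) and without cKO 3 (purple triangles); filled symbols are called at an adjusted p under 0.05. The bars of the clustered genes, with a median SE of 1.10, are mostly wider than those of the variants, whose median SE is 0.15.

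H2bc4, an H2B gene, had the highest level per length among the clustered genes, 44.5 ± 2.62 FPKM in the controls and 81 ± 24.2 FPKM in cKO (SD, n = 3). In CPM it measured 37.3, 32.8 and 34.8 in the controls and 42.8, 64.7 and 77.7 in cKO. All cKO libraries were above the controls, cKO 1 by the least and cKO 3 by the most. The fitted log2 fold change of 0.82 (SE 0.246) had an adjusted p of 0.103 in edgeR and 0.0374 in DESeq2, and it rose by 0.61 without cKO 3 (adjusted p = 0.0303). H2bc4 held 18.1 to 20.7% of all clustered-gene counts in the controls and 26.7, 37.8 and 37.9% in cKO 1, 2 and 3.

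H1f2 encodes H1.2, a linker histone of somatic cells. It measured 6.48, 7.99 and 7.43 CPM in the controls and 19.5, 18.8 and 12 CPM in cKO. The groups did not overlap, and cKO 3 was nearest to the controls. The fitted log2 fold change of 1.20 (SE 0.404) had an adjusted p of 0.134 in edgeR and 0.0252 in DESeq2, and it rose by 1.38 without cKO 3 (adjusted p = 0.00232). H1f5, named after its values were seen, encodes H1.5 and moved the other way in cKO 1 and 2: 5.69, 4.57 and 4.4 CPM in the controls, then 1.53, 1.02 and 9.68 CPM in cKO. With cKO 3 above every control library its log2 fold change was -0.26 (adjusted p = 0.913), and without that library it fell by 1.94 (adjusted p = 0.0275). Summed over the 5 clustered H1 genes, the level was 17.3, 16.6 and 18.4 CPM in the controls and 23.6, 21.9 and 27.7 CPM in cKO. Of these sums H1f2 alone held means of 7.3 and 16.8 CPM.

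Of the 16 clustered H2A genes, 9 were tested. H2ac23 measured 14.7, 10.1 and 17.3 CPM in the controls and 7.56, 3.86 and 9.48 CPM in cKO. Its groups stood apart by little, and the log2 fold change was -1.01 (SE 0.516, adjusted p = 0.307), or -1.31 without cKO 3 (adjusted p = 0.0198). It shares 93.5% of its 50-base words with other genes, so its reads may have been split among copies. H2ac8 measured 9.62, 11.5 and 9.68 CPM in the controls and 4.9, 2.84 and 10.5 CPM in cKO, with cKO 3 inside the control range; its log2 fold change was -0.76 (adjusted p = 0.545), and it fell by 1.41 without cKO 3 (adjusted p = 0.0151).

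H2ac24, another H2A gene, measured 2.55, 2.19 and 4.5 CPM in the controls, 2.55 and 1.02 CPM in cKO 1 and 2, and 15.1 CPM in cKO 3. Its log2 fold change was 1.01 (adjusted p = 0.659) with cKO 3 and -0.79 (adjusted p = 0.445) without it, so its sign rests on 1 library. H2ac24 shares 93.1% of its 50-base words with other genes, so its reads may also have been split among copies. H2ac18, named after its values were seen, had 5, 7 and 1 counts in the controls and 26, 27 and 14 in cKO (log2 fold change 2.40, adjusted p = 0.255; without cKO 3, 2.64, adjusted p = 0.0456). It shares 89.4% of its 50-base words with other genes. Summed over the 16 H2A genes, the level was 43.3, 37.6 and 42.4 CPM in the controls, 21.8 and 17.1 CPM in cKO 1 and 2, and 45.6 CPM in cKO 3. The H2A sum of cKO 3 was thus above all controls, and cKO 1 and 2 were at 0.472 of the control mean.

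Beyond H2bc4, H2bu2 was the H2B gene with the highest level per length. It measured 8.25, 14.1 and 6.06 CPM in the controls and 9.91, 6.3 and 3.49 CPM in cKO, and its values overlapped (log2 fold change -0.53, adjusted p = 0.695; without cKO 3, -0.23, adjusted p = 0.712). H2bc21, named after its values were seen, measured 21.6, 23 and 18.4 CPM in the controls, 20.7 and 13.7 CPM in cKO 1 and 2, and was listed at 0 in cKO 3. Its log2 fold change was -0.87 (SE 1.34, adjusted p = 0.766) with that 0 and -0.30 (SE 0.255, adjusted p = 0.425) without it. The 16 H2B genes summed to 83.7 ± 7.24 CPM in the controls and 92.4 ± 4.89 CPM in cKO (SD, n = 3). Of these sums H2bc4 alone held means of 35 and 61.7 CPM, and 8 of the 11 H2B genes tested without cKO 3 had a negative log2 fold change.

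H4 and H3 are the most conserved histones, and each is encoded by many near-identical clustered genes. H4c4 measured 9.62, 8.28 and 6.45 CPM in the controls and 3.07, 3.66 and 3.59 CPM in cKO. All cKO libraries were below the controls, cKO 3 included, and the log2 fold change was -1.24 (SE 0.575, adjusted p = 0.262), or -1.28 without cKO 3 (adjusted p = 0.0338). H4c9, the H4 gene with the highest level per length, measured 6.48, 8.56 and 3.62 CPM in the controls and 7.15, 12.3 and 7.58 CPM in cKO, with overlap (log2 fold change 0.53, adjusted p = 0.662; without cKO 3, 0.63, adjusted p = 0.288). The 13 H4 genes summed to 20.8 ± 5.04 CPM in the controls and 21.2 ± 4.58 CPM in cKO, and the 12 H3 genes to 14.2 ± 2.29 and 12.8 ± 1.57 CPM (SD, n = 3). Neither family sum was separated between the groups.

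Genes that did not pass the filter were also counted. H2ac21 had 8, 5 and 7 counts in the controls and 0 in each cKO library, and H4c2 had 10, 8 and 4 against 0; both were named after their values were seen. Taking 3 counts over the 3 cKO libraries as the floor (0.101 CPM), H2ac21 was at least 6.39-fold lower and H4c2 at least 7.03-fold lower in cKO. Over cKO 1 and 2 alone the floor is 0.153 CPM and the bounds are at least 4.23-fold and 4.66-fold. In edgeR without a filter neither was called (adjusted p = 0.203 for H2ac21 and 0.198 for H4c2, or 0.116 and 0.101 without cKO 3). Genes below the filter went both ways. H4c1 had 1, 0 and 3 counts in the controls and 7, 6 and 61 in cKO. H4c8 had 4, 3 and 4 against 9, 26 and 15. These were also named after their values were seen, and edgeR without a filter called neither H4c1 nor H4c8 (adjusted p = 0.261 and 0.402).

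Summed over all 62 genes, the clustered class measured 182, 181 and 168 CPM in the controls and 160, 171 and 205 CPM in cKO. The ratio of the means was 1.01, and cKO 3 lay above the controls while cKO 1 lay below them. Without H2bc4 the sum was 145, 148 and 133 CPM in the controls and 117, 107 and 128 CPM in cKO, 0.824 of the control mean, with every cKO library below every control. That order rests on H2bc21, at 0 in cKO 3: without it as well the sum was 123, 125 and 115 CPM in the controls, 96.7 and 92.9 CPM in cKO 1 and 2, and 128 CPM in cKO 3, above all controls. Genes with an annotated stem-loop summed to 102 ± 5.48 CPM in the controls and 88.9 ± 6.61 CPM in cKO. The 20 genes without an annotated one summed to 74.8 ± 7.08 and 90.1 ± 17.9 CPM (SD, n = 3), and H2bc4 was among them. Some of these 20 have short annotated transcripts, so the split follows the annotation and need not separate genes with and without a stem-loop.

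**Figure D3:**
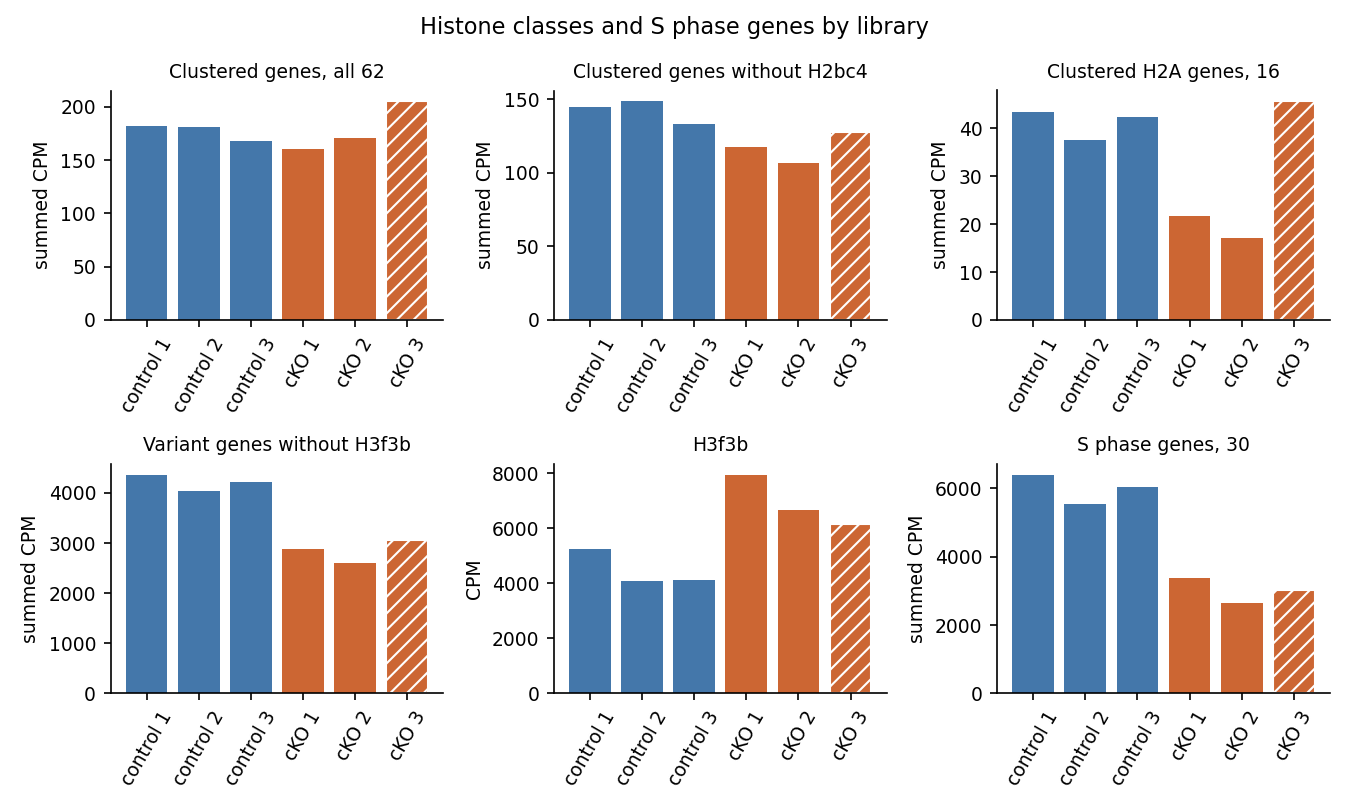
Summed level in CPM in each library for the clustered genes, the same without H2bc4, clustered H2A genes, variants without H3f3b, H3f3b alone and S phase genes; bars start at 0 and the hatched bar is cKO 3. The variant sum without H3f3b and the S phase sum are lower in all cKO libraries, and the clustered H2A sum is lower in cKO 1 and 2 but 45.6 CPM in cKO 3.

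Library cKO 3 differed from the other cKO libraries in the clustered class. In it 32 of the 62 genes were listed at 0, against 2 to 6 in each of the other libraries. Of 14 clustered genes with over 10 counts in each other library, 4 were at 0 in it (28.6%, against 12.4% of all such genes): H1f3, H2bc8, H2bc21 and H3c4, named after their values were seen. None of 10 variants was. These sets were not matched for level. In the other libraries H1f3, H2bc8 and H3c4 had 12 to 36 counts, and H2bc21 had 135 to 242. Other clustered genes, such as H2ac24 and H1f5, were highest in cKO 3 among all 6 libraries. The part of that library's low quality weight in these values was not tested.

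**Figure D4:**
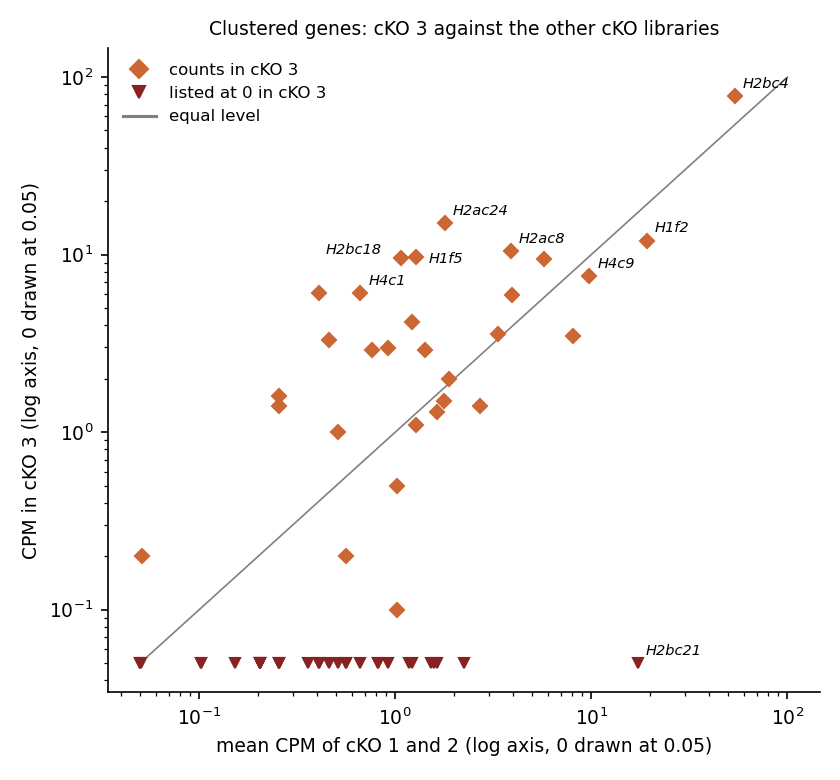
CPM of each clustered gene in cKO 3 against its mean in cKO 1 and 2, on log axes with values at 0 drawn at 0.05; the line marks equal levels. Triangles along the bottom are the 32 genes listed at 0 in cKO 3, H2bc21 among them, while H2ac24 and H1f5 lie above the line.

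The factors that make and process clustered histone mRNA were compared next. Npat, the co-activator of clustered histone transcription, measured 70.5, 70 and 54.3 CPM in the controls and 31.1, 35.6 and 51.3 CPM in cKO; it was not called (log2 fold change -0.72, adjusted p = 0.129) and fell by 0.97 without cKO 3 (adjusted p = 0.00119). Slbp, which encodes the stem-loop binding protein, measured 477, 395 and 427 CPM in the controls and 415, 299 and 323 CPM in cKO. Its values overlapped and it was not called with or without cKO 3 (log2 fold change -0.33 and -0.29, adjusted p = 0.245 and 0.134). Of 17 genes of histone mRNA synthesis and processing, 1 fell and none rose, beside 3.59% of all genes lower, and 7 fell without cKO 3, beside 14.9%. Their median log2 fold change was -0.48, or -0.29 without cKO 3.

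The gene called was Cstf2, a cleavage factor that also serves histone pre-mRNA, at 129 ± 8.33 CPM in the controls and 81.4 ± 11.5 CPM in cKO (SD, n = 3; log2 fold change -0.67, adjusted p = 0.0417; without cKO 3, -0.57, adjusted p = 0.00309). Zfp473, a zinc finger protein of the histone processing complex, had 72, 139 and 124 counts in the controls and 8, 6 and 0 in cKO. Its cKO libraries were all far below the controls. The log2 fold change of -4.47 (SE 1.21) had an adjusted p of 0.0775, and without cKO 3 it fell by 3.91 (adjusted p = 0.000111).

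Among 35 histone chaperones and assembly factors, 9 fell and none rose, beside 3.59% of all genes lower, with a median log2 fold change of -0.27. Without cKO 3, 18 fell and 1 rose, beside 14.9% and 13.7% of all genes, and the median was -0.37. Mcm2, a subunit of the replicative helicase that also holds H3 and H4, fell from 400 ± 34.3 to 190 ± 19.9 CPM (SD, n = 3; log2 fold change -1.07, adjusted p = 0.00654). Rbbp7, a histone-binding subunit of several chromatin complexes, fell from 1198 ± 55.5 to 631 ± 68.4 CPM (log2 fold change -0.93, adjusted p = 0.00706). Chaf1a and Chaf1b, which encode subunits of the chromatin assembly factor CAF-1, and the H3-H4 chaperone Asf1b were among the 9, with log2 fold changes of -1.47, -0.87 and -1.04. These 3, and Cenpa and its chaperone Hjurp, were picked after their values were seen: Cenpa fell by 1.42 (adjusted p = 0.0107) and Hjurp by 1.01 (adjusted p = 0.0124). Without cKO 3 the log2 fold changes of Mcm2, Rbbp7, Chaf1a, Chaf1b, Asf1b, Cenpa and Hjurp lay between -1.36 and -0.94, and all 7 were called.

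Clustered histone genes are read in S phase, so 30 other genes of that phase were compared. Of these 14 fell and none rose, beside 3.59% of all genes lower, and without cKO 3, 26 fell, beside 14.9%; all 30 had a negative log2 fold change, with a median of -0.97. Their sum was 6395, 5554 and 6044 CPM in the controls and 3370, 2641 and 3030 CPM in cKO. Uhrf1, which keeps DNA methylation through replication, fell by 1.81 (adjusted p = 0.00409), and Tyms, which makes thymidylate, by 1.22 (adjusted p = 0.00644); without cKO 3 the log2 fold changes were -1.70 and -1.15, and both were called. The part of a different share of cells in S phase in the histone results was not tested. Fewer expressing cells and less RNA per cell cannot be told apart in these bulk libraries.

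Markers were measured beside these results. The 19 ureteric epithelium genes all passed the filter, 6 fell and none rose (3.59% of all genes fell), and 9 fell without cKO 3 (14.9%); their sum was 10706 to 12068 CPM in the controls and 6420 to 7597 CPM in cKO. Hoxb7, the gene whose promoter drives the Cre-GFP transgene, fell by 1.30 (adjusted p = 0.00784), and by 1.40 without cKO 3. Among markers of nephron epithelium, Slc34a1 measured 4.33 ± 1.22 CPM in the controls and 13.7 ± 1.63 CPM in cKO. Lrp2 measured 2.78 ± 0.201 and 14.9 ± 10.01 CPM (SD, n = 3). Neither was called by edgeR with 6 libraries (adjusted p = 0.0977 and 0.0726), and both were called higher without cKO 3 (adjusted p = 0.00261 and 0.00783). Wt1 (0.748 and 0.339 CPM) and Slc12a1 (1.02 and 0.644 CPM) had lower means in cKO, with overlap. These 4 genes were named after their values were seen. Nphs1, a podocyte marker, was at 0 in every control and at a mean of 0.0681 CPM in cKO. Nephron progenitor genes summed to 10.9 to 14.6 CPM in the controls and 19.7 to 24 CPM in cKO. Cited1 held means of 4.9 and 14.3 CPM of these sums. Osr1 was lower in cKO (3.85 and 1.63 CPM) and Crym overlapped (3.25 and 3.55 CPM), both named after their values were seen. Cited1 had a log2 fold change of 1.54 (adjusted p = 0.111), was called higher by DESeq2 (adjusted p = 0.00969) and rose by 1.35 without cKO 3 (adjusted p = 0.0123).

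Six2, which defines nephron progenitors, measured 0.0655 and 0.237 CPM. Endothelial genes summed to 51.7 to 58.7 CPM in the controls and 12.6 to 21.4 CPM in cKO. Most of this was Egfl7, with means of 53.3 and 14.8 CPM. Egfl7 fell by 1.85 (adjusted p = 0.00784), and by 1.75 without cKO 3. Tek, named after its values were seen, went the other way, from 0.19 to 1.97 CPM. It was not tested with 6 libraries and was called higher by edgeR without cKO 3 (log2 fold change 3.85, adjusted p = 0.0249). Pecam1 and Cdh5 each had a mean below 1 CPM in both groups. Stromal genes summed to 12 to 26.8 and 2.19 to 27.8 CPM (Dcn, adjusted p = 0.525), and white blood cell genes to 53.7 to 83.2 and 57.5 to 70.9 CPM (Cd68, adjusted p = 0.25). Red blood cell genes reached 404 CPM in control 3, against 0.687 and 1.05 CPM in the other controls and 0 to 35.2 CPM in cKO (Hba-a1, adjusted p = 0.487). The part of other cell types in the histone results was not tested. Without control 3 no histone gene was called, and among all 13601 genes tested in that fit 59 fell and 62 rose.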

How the data were processed

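Per the labels' protocols, libraries were made from sorted cells with a strand-preserving mRNA kit. The submitters' processing notes list the tools HISAT2, Cufflinks, HTSeq and DESeq, with GRCm39 as build. How strand was set in counting is not stated there, so a gene and an antisense gene over it may have shared reads. The authors deposited raw read counts and FPKM values per gene. The deposited FPKM were checked against the counts and are a rescaling of them by gene length and library (largest relative deviation 2.21e-07), so they are no independent measure.

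Counts were tested with edgeR 4.0.16 in R 4.3.3: filterByExpr, TMM, then its quasi-likelihood F-test (robust) with group as the only term, and Benjamini-Hochberg adjustment over all genes tested. A gene was called at an adjusted p under 0.05. The SE is taken from F, as the size of the log2 fold change over its square root. CPM are scaled by TMM. The alternatives were leaving out each library, RLE size factors, DESeq2 1.42.0, limma 3.58.1 (voom with library weights, and log2 of FPKM with pseudocounts 1 and 0.1), no filter, a stricter filter (10 counts in 5 libraries) and a replicate block.

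The members and lists were chosen with earlier results of these data known. Named genes are the called members, the 8 clustered genes with the highest mean FPKM, variants with at least 60 counts in all, Ash2l, Slbp and Npat, the 2 members of each pathway list and the 1 of each cell type list with the smallest p; others are said to be named later. Some marker results are not reported here. A list of 10 RNAs without poly(A) tails outside the histones had no row in the table. Shared sequence is the share of 50-base words of a gene's GENCODE vM21 transcripts found in other genes. Replicate numbers did not pair the libraries: deviations of same-numbered libraries had correlations of -0.022, 0.025 and -0.001. Within a group, chi-square per degree of freedom between libraries was 10.2 to 75.6, above sampling noise, so none was taken for a repeat deposit.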

Additional observations from a re-analysis of the deposited data

How the results depend on the processing

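Calls depended on single libraries and on the spread model. Leaving out 1 library gave 0 to 11 histone genes called lower and 0 to 4 called higher, against 4 and 1; no histone gene was called lower without control 3, none higher in any of these tests but the one without cKO 3, and the 11 and 4 are without cKO 3. Over all genes these tests gave 59 to 2032 lower and 62 to 1865 higher calls. The replicate block gave 0 lower and 0 higher histone genes, and 11 and 12 genes in all. DESeq2 called 5 histone genes lower and 3 higher (1061 and 1111 in all). The limma-voom fit with library weights called 9 lower and 4 higher (1756 and 1607 in all). The fit of log2(FPKM + 1) gave 8 and 3 (709 and 696 in all), and that of log2(FPKM + 0.1) gave 5 and 2 (531 and 625 in all). With no filter and without cKO 3, an alternative chosen after seeing the data, 11 fell and 3 rose. Among all 17155 genes of that fit, 2138 fell and 1877 rose. RLE size factors kept the counts at 4 and 1 (475 and 447 in all).

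The median of the clustered genes stayed negative under each alternative: -0.75 to -0.32 leaving out 1 library, -0.93 with the replicate block and -0.88 for log2(FPKM + 0.1). That of the variants was -0.75 to -0.55 leaving out 1 library, -0.47 without a filter, -0.48 in DESeq2 and -0.83 in limma-voom. Among the named genes, signs turned for H2ac24 (-0.79 without cKO 3 and up to 1.51 without cKO 2, -0.80 without both the filter and cKO 3, -0.85 in limma-voom), for H3f3c (0.01 without control 1, 0.37 without cKO 1) and for Hba-a1 (4.11 without control 3, down to -5.88 without cKO 2, 1.57 with the replicate block, 0.78 in limma-voom); the cause was not tested. Without cKO 3, signs turned for 7 of the 43 tested histone genes, all clustered and all but H2ac24 outside the naming rule. The clustered genes held up to 0.021% of a library's counts, and their median SE was 1.10, or 0.83 without cKO 3.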
